A study of Homo sapiens with 6 samples.

Results

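Box C/D small nucleolar RNAs (snoRNAs) were examined in the human multiple myeloma line RPMI 8226, an established line of malignant plasma cells. The cells had been given 0 Gy or 6 Gy of carbon ions, a densely ionising particle radiation, and total RNA was taken 1 day later. Both groups came from the same line under the same culture conditions, and the labels give no other treatment or genetic change. Of 18417 genes with a probe set of their own on the arrays, 115 carry a symbol that starts with SNORD, and each of these is read by 1 probe set. RefSeq lists 112 of them as snoRNAs and 3 as pseudogenes of SNORD13. A further 49 probe sets list a SNORD symbol beside other symbols and were kept out. Values are deposited log2 intensities from 3 unirradiated and 3 irradiated arrays, and differences are irradiated minus unirradiated. Whether the 3 samples of a group were grown apart is not in the labels, and the spread on which every p-value rests may therefore be technical. In such bulk RNA, fewer cells of a kind and less RNA per cell cannot be told apart.

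Box C/D snoRNAs are short nuclear RNAs that bind fibrillarin, NOP56, NOP58 and SNU13 and guide the 2'-O-methylation of ribosomal and spliceosomal RNA by base pairing. A few, such as U3, U13 and U14, serve the cutting and folding of the ribosomal RNA precursor. Most human members lie in introns of host genes and are trimmed from the excised intron, so their supply is tied to the transcription of a host that often encodes a ribosomal protein or a translation factor. They lack a poly(A) tail. On these arrays a probe set within an intron can read the mature snoRNA or the unspliced host transcript, and these cannot be told apart.

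The arrays had nearly equal medians, between 5.64 and 5.72. The cells carried plasma cell transcripts: of 8 markers, 7 lay above the array median, with IRF4 at 11.49 ± 0.01 (mean ± SD, n = 3, unirradiated) and SLAMF7 at 4.63 ± 0.11. Of 9 markers of T cells, monocytes and fibroblasts, 8 lay below the array median, and COL1A1, at 6.46 ± 0.01 in unirradiated cells, was the exception. It was also the only one of these 9 to pass the test, higher by 0.23. Of the 8 plasma cell markers, 1 passed as higher, SLAMF7 by 0.55, and 2 as lower, CD38 by 0.42 and XBP1 by 0.23. The part of these markers in the differences described here was not tested.

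The members spanned nearly the whole range of the arrays. SNORD13 (U13, which acts in the maturation of the small ribosomal subunit RNA) had the highest mean, at 12.82 over all 6 arrays. Its pseudogene SNORD13P3 stood next at 12.65. The copies are alike enough that their probe sets may share signal, although the pseudogenes SNORD13P2 and SNORD13P1 were read at only 3.91 and 2.58. SNORD57 at 12.33 and SNORD33 at 12.28 followed, and both guide methylation of the small subunit RNA. SNORD41 at 11.73 and SNORD45A at 11.32 completed the 6 highest. No difference between these 6 levels was tested, since each comes from another probe set.

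Splitting the members at the median of the array medians, 5.67, put 49 above and 66 below. SNORD8, at 5.74, lay just above this level and SNORD32B, at 5.64, just below it. The dim members consisted largely of the tandem repeats of 2 imprinted loci that are known for expression in brain. All 20 measured SNORD115 copies lay between 2.40 and 3.04, and the 20 SNORD116 copies between 2.59 and 4.16. The 6 copies of SNORD113 and SNORD114 lay between 2.79 and 3.64. Of these 46 repeats, 45 were below the lower quartile of the arrays, which ran from 3.89 to 3.97. No detection p-values accompany the values, and it is unknown if any repeat is above background. The 66 members outside these families and the pseudogenes had a median level of 7.11, and 48 of them were above the array median.

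**Figure D1:**
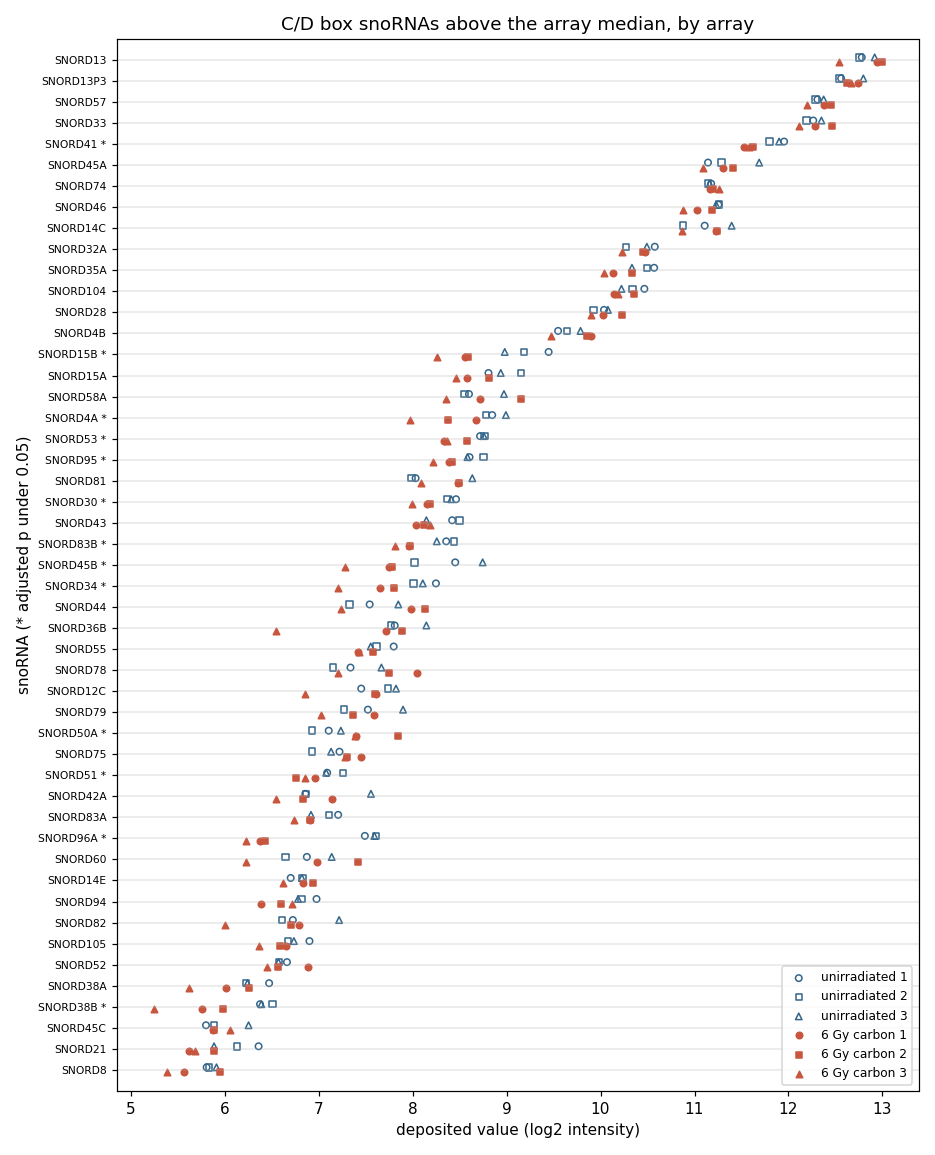
Deposited log2 intensity (horizontal axis) of the 49 members above the array median on each of the 6 arrays; open blue symbols are unirradiated arrays, filled red symbols irradiated arrays, and shapes mark the replicate number. The red triangles, irradiated replicate 3, are the leftmost point for 34 of the 49 members, and SNORD96A shows the widest gap between the groups among the members marked with an asterisk (adjusted p under 0.05).

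After irradiation, 13 members fell, 1 rose and 101 did not pass (limma adjusted p under 0.05 over all genes). The share that fell, 11.3%, is to be read against 8.18% of all genes lower, and the single riser against 6.35% of all genes higher. Levels divide this further. Above the array median 12 of 49 members fell, or 24.5%, where 12.5% of all genes above the array median did, and 1 rose, where 8.44% did. Below it 1 of 66 fell, where 1.45% of genes below the array median did, and 0 rose in the limma fit, where 3.11% did (2 had an unadjusted p under 0.05 in the higher direction). The median difference was -0.23 among the members above the array median and -0.01 among those below, beside 0.01 and 0.07 for all genes in the same ranges. Groups did not overlap for 22 members in the lower and 4 in the higher direction, beside 15.7% and 19% of all genes. Above the array median this held for 16 and 2 of the 49 members, beside 23.4% and 21.4% of genes in that range.

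None of the 46 repeats of the imprinted loci passed the limma test in either direction; 2 of them had an unadjusted p under 0.05. All 46 lie below the array median, where only 1.45% of genes were lower and 3.11% higher, so a count of 0 is near that background. Over all genes at any level 14.5% passed. Median differences were 0.00 for SNORD115, 0.04 for SNORD116 and 0.02 for SNORD113 and SNORD114. Among the other 66 members the median difference was -0.18 for the 18 below the array median, and 16 of these 18 differences were below 0. Only SNORD117 among those 18 passed.

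**Figure D2:**
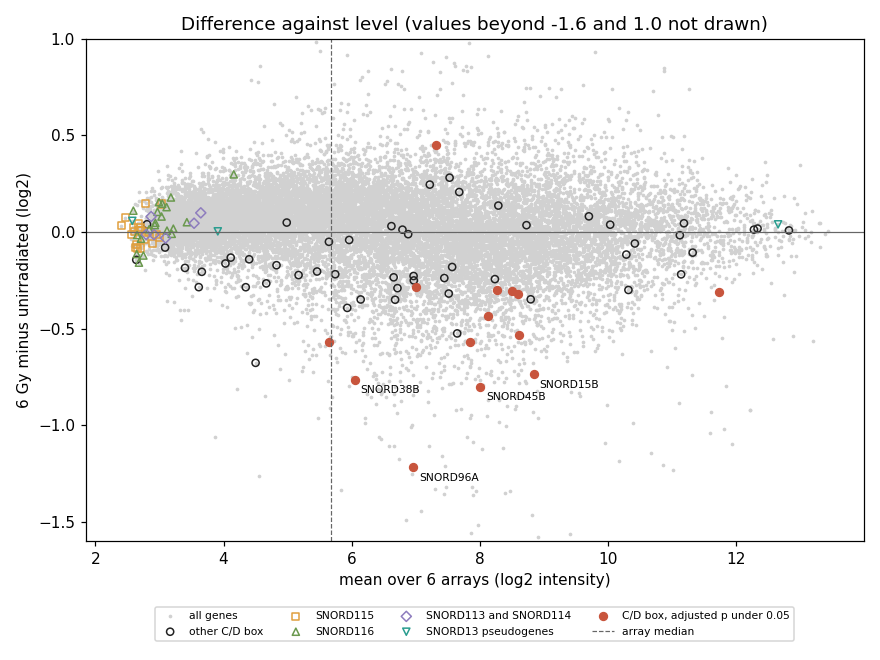
Difference between irradiated and unirradiated means (log2, vertical axis) against the mean over 6 arrays (log2 intensity, horizontal axis) for all genes in grey and the members by family; filled red circles are members with an adjusted p under 0.05 and the dashed line is the array median of 5.67. The SNORD115 and SNORD116 copies sit at the dim end near 0, while 13 of the 14 red points lie below 0.

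SNORD96A, a guide for methylation of 5.8S ribosomal RNA, fell most. Its values were 7.49, 7.61 and 7.59 on the unirradiated arrays and 6.38, 6.43 and 6.23 on the irradiated arrays. Each irradiated value lay more than 1 log2 unit below each unirradiated one, a mean difference of -1.22 ± 0.08 (SE) or 2.33-fold lower, with a limma adjusted p of 1.94e-05. The similarly named SNORD96B, at 4.40 and thus below the array median, differed by -0.14 (adjusted p 0.388). SNORD96A and SNORD95 are among the snoRNAs that small RNA PCR assays commonly use as reference RNAs.

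SNORD45B fell by 0.80 on the log2 scale, or 1.74-fold. It read 8.45, 8.02 and 8.75 without irradiation and 7.75, 7.79 and 7.29 with it, so the groups are apart but the unirradiated arrays alone have an SD of 0.36. SNORD38B fell from 6.38, 6.51 and 6.39 to 5.76, 5.98 and 5.25, a difference of -0.76 ± 0.15 (SE). SNORD15B, which guides methylation of the large subunit RNA, fell from 9.45, 9.19 and 8.98 to 8.56, 8.59 and 8.26, a difference of -0.73 ± 0.13 (SE). For these the groups do not overlap, and irradiated replicate 3 was the lowest array each time.

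SNORD117 fell from 5.95, 5.80 and 6.03 to 5.57, 5.22 and 5.27. SNORD34, encoded in RPL13A, fell from 8.25, 8.01 and 8.11 to 7.65, 7.80 and 7.21. SNORD4A went from 8.85, 8.78 and 8.99 to 8.67, 8.38 and 7.97, with only a narrow gap between unirradiated replicate 2 and irradiated replicate 1. SNORD83B fell from 8.36, 8.44 and 8.26 to 7.96, 7.97 and 7.82, a small but even shift of -0.44 ± 0.08 (SE). The other 5 that fell, SNORD53, SNORD41, SNORD95, SNORD30 and SNORD51, differed by -0.32 to -0.29, or 1.25-fold to 1.22-fold. SNORD30 and SNORD51 lie outside the rule for naming and were named after their values were seen.

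SNORD50A, a large subunit guide whose RNA has been reported to bind K-Ras, was the only riser. It read 7.11, 6.93 and 7.24 without irradiation and 7.40, 7.85 and 7.39 with it. The difference of 0.45 ± 0.13 (SE), or 1.37-fold, passed narrowly, with a limma adjusted p of 0.0418, and did not pass once array medians were subtracted. Its neighbour in the host SNHG5, SNORD50B, differed by -0.22 (adjusted p 0.575).

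The calls differ in how well they bear the loss of an array. SNORD96A, SNORD15B, SNORD83B, SNORD117 and SNORD38B passed with any 1 of the 6 arrays left out, with adjusted p of at most 0.0416. SNORD45B and SNORD34 missed the threshold without unirradiated replicate 1 or 3, up to 0.0567 and 0.0806. SNORD41 missed it without either of these or irradiated replicate 1 (up to 0.0751). SNORD53 and SNORD95 passed only without irradiated replicate 2, SNORD51 only without irradiated replicate 1 and SNORD4A only without irradiated replicate 1, with adjusted p up to 0.0808, 0.124, 0.150 and 0.124. SNORD30 missed without any unirradiated array or irradiated replicate 3 (up to 0.0914), and SNORD50A without any unirradiated array or irradiated replicate 2 (up to 0.141). In counts, 5, 8 and 7 members were lower without unirradiated replicates 1, 2 and 3.

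None of the 3 measured members used in ribosomal RNA processing passed in the limma fit (0 had an unadjusted p under 0.05). SNORD13 was 12.82 ± 0.09 (SD, n = 3) in unirradiated and 12.83 ± 0.25 in irradiated cells. Its brightest values came from irradiated replicates 1 and 2 and its dimmest, 12.54, from irradiated replicate 3. SNORD14C (U14) differed by -0.02 ± 0.14 (SE) and SNORD14E by 0.01 ± 0.09, with limma adjusted p of 0.950 and 0.941. The copies of U3 (SNORD3 symbols) have no probe set of their own and were not analysed here. SNORD57, SNORD33 and SNORD45A differed by 0.02, 0.01 and -0.11 (adjusted p 0.901, 0.943 and 0.637), so of the 6 brightest members SNORD41 alone passed.

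The bright members also differed between arrays of the same dose. Irradiated replicate 3 held the lowest of the 6 values for 34 of the 49 members above the array median, or 69.4%, where it did so for 17% of all genes above it. The median deviation of these members from their own 6-array means was -0.26 on that array, -0.01 and 0.02 on irradiated replicates 1 and 2, and 0.08, 0.04 and 0.14 on unirradiated replicates 1 to 3. Over all genes above the array median the same deviation stayed between -0.02 and 0.01. SNORD36B shows the pattern plainly, with 7.81, 7.77 and 8.15 unirradiated and 7.72, 7.89 and 6.55 irradiated; it was picked out after its values were seen.

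The median difference of the members above the array median therefore depended on these arrays: -0.10 without irradiated replicate 3, against -0.23 with all arrays. With unirradiated replicate 3 left out as well it was 0.01, and 7 members fell while 4 rose. The 4 were SNORD50A and, from the host GAS5, SNORD44 (0.62), SNORD78 (0.65) and SNORD81 (0.48), with limma adjusted p of 0.0414, 0.0119, 0.0170 and 0.0112. The 7 were SNORD96A (-1.14), SNORD15B (-0.74), SNORD38B (-0.57), SNORD83B (-0.44), SNORD21 (-0.49), SNORD43 (-0.38) and SNORD94 (-0.40). Of these, SNORD21, SNORD43 and SNORD94 had not passed with all arrays (limma adjusted p 0.0533, 0.123 and 0.0708). The differences of SNORD15B and SNORD83B thus hardly moved, that of SNORD96A moved by less than its SE, and that of SNORD38B shrank from -0.76. SNORD117 missed the threshold there (0.0520), as did SNORD45B, SNORD34, SNORD41, SNORD53, SNORD95, SNORD30, SNORD4A and SNORD51 (limma adjusted p up to 0.142). This choice of arrays, and the naming of members from it, were made after seeing the data.

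**Figure D3:**
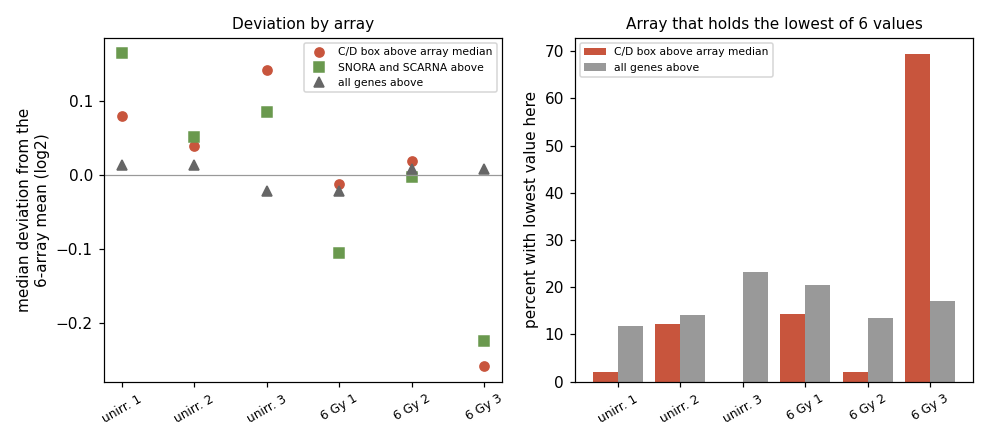
Left, median deviation from the 6-array mean (log2) on each array, over C/D box members, SNORA and SCARNA genes and all genes above the array median; right, the percent of members and of all genes above the array median whose lowest value is on that array. Irradiated replicate 3 stands lowest for both snoRNA classes on the left (-0.26 and -0.22) and holds the lowest value of 69.4% of the C/D box members on the right.

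Host genes were taken from RefSeq as the gene whose span contains the snoRNA gene, on either strand. Such a gene was found for 113 members, 44 different hosts in all, of which 25 have a probe set of their own. Of these 25, 3 passed. HSPA8, the constitutive cytosolic HSP70 chaperone gene and host of SNORD14C and SNORD14E, rose by 0.35. TNPO2, a nuclear import receptor gene and host of SNORD41, fell by 0.43, and FOXK1, host of SNORD13P2, fell by 0.26. The other 22 did not pass, so 2 of 25 hosts fell and 1 rose, beside 12.5% and 8.44% of genes above the array median, where 24 of the 25 lie, and the median over hosts was -0.03. The call ended without unirradiated replicate 2 for HSPA8 (adjusted p 0.0592), without unirradiated replicates 1 or 3 for TNPO2 (up to 0.0753) and without each array except irradiated replicate 3 for FOXK1 (up to 0.101).

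Whether a snoRNA changed by another amount than its host was tested on the within-array difference between them, in a fit of all 752 measured nested genes with a measured containing gene. Of 35 pairs with a C/D box member, 2 passed, both lower than the host, where 2.93% of all pairs were lower and 3.19% higher. SNORD15B moved by -0.71 ± 0.13 (SE) relative to RPS3, a small subunit ribosomal protein gene, with a limma adjusted p of 0.00597. RPS3 itself was 12.99 ± 0.02 (SD, n = 3) without irradiation and 12.96 ± 0.11 with it, so its groups overlap. SNORD45B moved by -0.84 ± 0.21 (SE) relative to RABGGTB, which encodes a subunit of Rab geranylgeranyl transferase (adjusted p 0.0326; up to 0.154 with 1 array left out, where it passed in 3 of 6 cases, and 0.0479 at most for SNORD15B). Of the 35 members 28 were lower than their host in mean difference, with a median of -0.21, beside 0.03 over all 752 pairs. How far this median rests on irradiated replicate 3, where the members above the array median ran low, was not tested.

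Several other pairs show how close or far host and snoRNA ran. SNORD41 and TNPO2 both fell, and their difference of 0.12 ± 0.13 (SE) did not pass (adjusted p 0.649). HSPA8 rose while SNORD14C and SNORD14E did not pass, and the differences of -0.36 ± 0.14 and -0.34 ± 0.13 (SE) gave adjusted p of 0.152 and 0.156. SNORD51 fell by 0.29 while its host EEF1B2, a translation elongation factor gene, differed by 0.09, which gave -0.38 ± 0.11 (SE) and an adjusted p of 0.0683. RACK1, RPL13A, GAS5, SNHG1 and SNHG5 have no probe set of their own, so their snoRNAs could not be set against the host.

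snoRNAs that lie on the strand of the same host are cut from its primary transcript and can be set against each other without the host's own value. Strand was not checked here, so a shared transcript is assumed for the pairs below. Among 236 pairs of nested genes above the array median that share a containing gene, 31 pairs (13.1%) differed in a limma fit of all of them, a test chosen after seeing the data. Of these 236, 40 are pairs of C/D box members, in 10 hosts, and 9 of the 40 differed, in 6 hosts. Pairs of the same host share members, so these 9 are not independent.

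In RACK1, which encodes a scaffold protein of the small ribosomal subunit, SNORD96A fell by 1.22 and SNORD95 by 0.31. SNORD95 read 8.61, 8.76 and 8.58 on the unirradiated arrays and 8.39, 8.42 and 8.22 on the irradiated arrays. The drop of SNORD96A was the larger by 0.91 ± 0.13 (SE), with a limma adjusted p of 5.20e-04 (0.00882 at most with 1 array left out). In RABGGTB, SNORD45B fell by 0.80, while SNORD45A differed by -0.11 and SNORD45C by -0.04. SNORD45A read 11.14, 11.29 and 11.69, then 11.31, 11.41 and 11.09, with the groups overlapping. SNORD45B differed from SNORD45A with an adjusted p of 0.00869 and from SNORD45C with 0.0114.

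RPL23A, a large subunit protein gene, holds SNORD4A and SNORD4B, which differed by -0.53 and 0.08 (adjusted p of the contrast 0.00814). RPL13A holds the snoRNAs SNORD32A, SNORD33, SNORD34 and SNORD35A, of which SNORD32A, SNORD33 and SNORD35A are known for a role in lipotoxic stress. SNORD34 fell more than SNORD33 (adjusted p 0.0110) and SNORD32A (0.0217), and the contrast of SNORD34 with SNORD35A, -0.27 ± 0.14 (SE), did not pass (0.264). In RPS3, SNORD15B and SNORD15A differed by -0.73 and -0.35, a contrast of 0.39 ± 0.16 (SE) that did not pass (0.134).

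GAS5, a non-coding host whose transcript accumulates in growth-arrested cells, holds 7 measured members, more than any other host outside the imprinted loci. SNORD44, SNORD74, SNORD75, SNORD78 and SNORD81 had differences above 0, from 0.05 to 0.28, and SNORD77 and SNORD79 below 0, at -0.08 and -0.24. None of the 7 passed in the limma fit (SNORD75 had an unadjusted p under 0.05). SNORD75 came nearest: it read 7.22, 6.93 and 7.13, then 7.45, 7.30 and 7.28, without overlap (adjusted p 0.0975). SNORD78 and SNORD79, which are neighbours in this host, differed from each other by 0.52 ± 0.13 (SE), with an adjusted p of 0.0165. Except for SNORD96A against SNORD95, each of the 9 contrasts missed the threshold in 1 or more of the 6 fits with an array left out, with adjusted p up to 0.108, and 1 contrast passed without unirradiated replicate 1 and 5 without irradiated replicate 3.

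**Figure D4:**
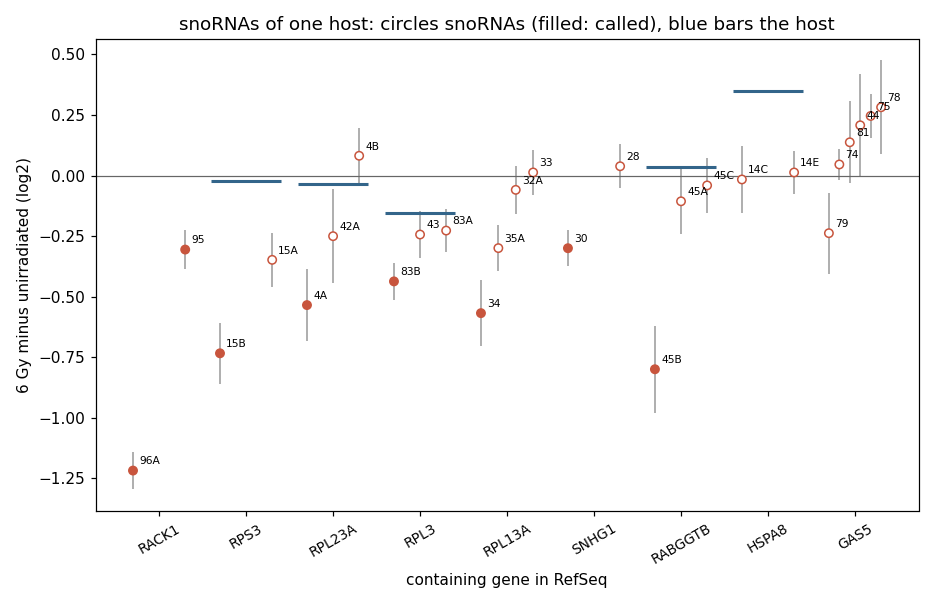
Difference between irradiated and unirradiated means (log2, vertical axis) for members above the array median in 9 of the 10 hosts that hold at least 2 of them; circles are snoRNAs labelled by number with bars of ± 1 SE, filled where the adjusted p is under 0.05, and blue bars are hosts with a probe set of their own. SNORD96A and SNORD45B lie far below the other members of their hosts, and the 6 GAS5 members drawn lie between -0.24 and 0.28.

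Members cut from the transcript of a host share its promoter, so the start of some hosts is printed to show what such pairs would have in common. Many snoRNA hosts are 5' terminal oligopyrimidine genes, whose transcripts begin with a C and a run of pyrimidines and are regulated at translation. The windows below, from RefSeq on GRCh38.p14, show 40 bases before and 15 bases from the annotated start, 5' to 3'. Capitals mark a C at the start followed by at least 4 pyrimidines, searched on the transcribed strand and at the start position only.
RACK1 (chr5:181243892-181243946, minus strand): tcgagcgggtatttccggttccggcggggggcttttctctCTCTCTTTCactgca
RABGGTB (chr1:75786216-75786270, plus strand): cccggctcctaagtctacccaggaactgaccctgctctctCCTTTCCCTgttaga
RPS3 (chr11:75399478-75399532, plus strand): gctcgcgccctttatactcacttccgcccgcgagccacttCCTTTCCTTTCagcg
RPL13A (chr19:49487568-49487622, plus strand): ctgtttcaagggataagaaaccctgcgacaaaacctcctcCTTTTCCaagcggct
SNHG5 (chr6:85678719-85678773, minus strand): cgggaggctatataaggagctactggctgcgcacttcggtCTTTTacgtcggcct
SNHG1 (chr11:62855871-62855925, minus strand): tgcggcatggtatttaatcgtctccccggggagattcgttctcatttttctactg
GAS5 (chr1:173869031-173869085, minus strand): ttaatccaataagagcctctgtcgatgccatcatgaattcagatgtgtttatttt
RACK1, RABGGTB, RPS3 and RPL13A, which hold snoRNAs that fell beside others that did not pass or fell less, carry the tract, and so does SNHG5, host of the only riser. SNHG1, in which SNORD30 fell and SNORD28 differed by 0.04 without passing, has no such tract at the annotated start, and neither has GAS5, which says only that these letters are not at that position. These hosts were picked with the values known, so the windows show no relation between the tract and the differences. Of the 36 hosts with a window in the table, 13 (36.1%) had the tract in any of their windows. For hosts of members above the array median it was 10 of 23 (43.5%). Of all 35116 windows of the same length 4.07% had it. That share is counted per window and not per gene, so it is not a like measure. No entry of that table matched a member itself.

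Genes whose products build, move or trim C/D box particles went both ways. Of 31 measured, all above the array median, 5 fell (16.1%) and 2 rose, beside 12.5% lower and 8.44% higher of genes in that range, with a median of -0.03. Neither measured core protein passed: fibrillarin (FBL), the methyltransferase, differed by -0.04 ± 0.07 (SE) and NOP58 by -0.03 ± 0.07, while NOP56 and SNU13 have no probe set of their own. Among 8 assembly factors, PIH1D1, a subunit of the R2TP complex, fell by 0.38 (adjusted p 0.00557) and NUFIP1, a scaffold of snoRNP assembly, rose by 0.32. Of 7 cap and transport factors, NCBP2, the small subunit of the nuclear cap-binding complex, fell by 0.61 (0.00218). Its partner NCBP1 differed by 0.22 (0.0704), and the export adaptor PHAX by 0.18 (0.139).

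Of 6 proteins of the U3 particle, IMP4 fell by 0.28 and BMS1, a GTPase of the same complex, rose by 0.27. Of 8 trimming and release factors, the nuclear exosome genes EXOSC10 and EXOSC3 fell by 0.26 and 0.23. DBR1, the debranching enzyme that opens the excised intron, differed by 0.02 (0.875). NCBP2 and PIH1D1 passed with any 1 array left out. The other 5 did not, and NUFIP1 and BMS1 also missed with array medians subtracted. IMP4 missed without unirradiated replicates 1 or 2 or irradiated replicates 1 or 3 (up to 0.0857), as did NUFIP1 (up to 0.125). BMS1 missed without each array except irradiated replicate 2 (up to 0.123), EXOSC10 without each except irradiated replicate 3 (up to 0.135) and EXOSC3 without any 1 of the 6 (up to 0.129). With the arrays left out in turn 2 to 5 of the 31 passed.

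Other short RNAs give a scale for these counts. Of 77 H/ACA and Cajal body RNAs (SNORA and SCARNA genes), the class that guides pseudouridylation, 18 fell and 0 rose in the limma fit (1 had an unadjusted p under 0.05 in the higher direction). Above the array median 12 of 50 fell, or 24%, beside 24.5% of the C/D box members. Their median difference in that range was -0.16. MicroRNA genes above the array median had 2 lower and 4 higher of 26, with a median of 0.13. The 17 spliceosomal, Y, 7SK, 7SL and vault RNAs and RNase components above the array median had 2 lower and 0 higher in the limma fit (7 and 0 at an unadjusted p under 0.05), with a median of -0.24. No difference between these classes was tested.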

How the data were processed

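Total RNA was extracted with Trizol and biotin-labelled for 1-colour arrays, per the labels' protocols. The authors deposited 1 log2 value per probe set and array (33297 probe sets); the base is taken from their range, and every fold rests on it. Their software, normalization and genome build are not given in the sources used. Platform annotation, which can be old, names a single gene for 19460 of them, more than 1 for 1754, and no gene for 12083. For 769 genes with several probe sets the one with the highest mean was used. All 115 members matched RefSeq (GRCh38.p14) by Entrez ID.

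Arrays were compared with limma 3.58.1 (lmFit, eBayes; R 4.3.3), two-sided, without covariate or filter, over all 18417 genes; called means a Benjamini-Hochberg adjusted p under 0.05. The median SE was 0.08 over all genes and 0.11 over members above the array median. Hosts were taken by containment alone, because the RefSeq gene table used gives no strand; this departs from the planned same-strand rule. The named members are the processing snoRNAs, the 12 largest differences among called members, the 6 brightest, any riser and the members beside the array median; hosts of these, hosts with at least 3 members, the core proteins and called protein genes are also named. Members and lists were chosen with earlier results of these data known. Simulated data of 18417 genes had 200 genes changed, where the real fit called 2676. Recovery was 4% for changes of 0.25, 62% for 0.5, 94% for 1 and 100% for 2 on the log2 scale, with 7 false calls. Over the 752 pairs, also with 200 changed, it was 14%, 72%, 94% and 100%, with 4. The adjusted p depends on the share changed, so these rates need not hold for the real fits. Alternatives were the sample number as a block, each array left out, quantile scaling, array medians subtracted, no dim genes, array weights, a robust prior with intensity trend, other uses of probe sets, stricter thresholds and another level split. Tables and plots used pandas 2.3.3, numpy 2.4.6 and matplotlib 3.10.9 in Python 3.11.15. The results of 1 host are not reported here.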

Additional observations from a re-analysis of the deposited data

How the results depend on the processing

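Correlations of same-numbered deviations over all genes were -0.04, 0.10 and -0.11. Over the members above the array median they were -0.34, -0.20 and -0.52. The labels do not say whether arrays of the same sample number belong together. Under a replicate block on that number, 10 members were lower and 0 higher, 9 of the named members, 2 hosts, 4 protein genes, 1 member against its host and 9 pairs of 1 host were called. With an array left out the counts ran from 5 to 18 lower members, 0 to 2 higher members, 5 to 11 named members, 1 to 3 hosts, 2 to 5 protein genes, 1 to 3 members against hosts, 1 to 9 pairs of 1 host and 1471 to 2184 for all genes called. The median of members above the array median ran from -0.26 to -0.10. Without both arrays numbered 3 it was 0.0065, with 7 lower and 4 higher members. With all probe sets tested 5 members were lower, 0 higher, 5 named members, 1 host and 2 protein genes called; the pair fits were not run in that setting. At an adjusted p under 0.01 the numbers were 4 lower and 0 higher members, 0 hosts, 2 protein genes, 1 member against its host and 1077 of all genes called. At a fold minimum of 1.5 they were 4 lower and 0 higher members, 0 hosts, 1 protein gene and 388 of all genes called. With array medians subtracted 0 members were higher and 5 hosts called; the latter was 5 without the dimmest 33.3% of genes and 6 with an intensity trend. Removing those dim genes left fewer members below the array median, whose median became -0.20. Split at the upper quartile instead, the brighter members had a median of -0.12, nearer to 0 than the -0.23 above the array median. In the other settings the counts stayed within 1.5 times. Causes were not tested unless named. The number of arrays limits the precision.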
